A study of Mus musculus with 13 samples.

Results

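The genes described here are 39 genes of the cell cycle and of DNA replication, chosen by symbol from the 24421 gene symbols of the count table. These members and the other gene lists were chosen with earlier results of these data known. Their shares set beside those of all genes are therefore a description and not an independent test. All 39 were present and all 39 passed the filter on low counts, as did 13915 genes in all. They were measured by bulk RNA sequencing of liver endothelial cells, the cells that line the sinusoids and larger vessels of the liver. The cells came from wild-type mice kept germ-free, that is without a microbiota (GF, n = 6 libraries, numbered 8 to 13), and from conventionally raised wild-type mice with a normal microbiota (CONV-R, n = 7 libraries, numbered 1 to 7). The labels name no allele or drug in either group. The labels give no age, sex, strain or isolation method and do not say whether a library is a single animal, so a p-value here reflects spread among libraries, which may be technical. Each library name contains a code number, which is 6 for all GF libraries, 10 for CONV-R 1 to 4 and 9 for CONV-R 5 to 7. What the number stands for is not stated, and since GF and CONV-R share none, code number and group cannot be told apart.

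The cell cycle is driven by cyclin-dependent kinases, which are active only when bound to a cyclin. D cyclins with Cdk4 and Cdk6, and then E cyclins with Cdk2, phosphorylate the retinoblastoma protein and free E2F factors, which switch on the genes of DNA replication. A later wave of genes, controlled through CHR and CCAAT promoter elements by the DREAM and MuvB complexes, supplies cyclin A and B, Cdk1 and the machinery of mitosis. Cip/Kip proteins bind cyclin-kinase complexes and hold the cycle back. In the adult liver most sinusoidal endothelial cells are quiescent, and they divide after injury or partial removal of the liver.

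Promoter windows of the members were searched for such elements, with the members grouped beforehand by role and not by motif. RefSeq windows of the build GRCm38.p6, the files' own build, reach from 250 bases before to 50 after a gene's start, and 32 of the 39 members matched 35 of them. Ccna2, Ccnd1, Ccnd2, Ccne2, Cdkn1c, Aurkb and Mcm4 were not matched. Shown, 5′ to 3′, are windows of Cdkn1a and Cdkn1b, inhibitors that were higher in GF, of the helicase gene Mcm7, and of Cdk1, Ccnb2 and Top2a, 3 genes of the mitotic wave. Capitals mark matches on either strand. TTTGAA is the core of the CHR element. The CCAAT box binds the factor NF-Y. TTCCCGC is a core of E2F sites. In Cdkn1a the capitals mark a p53 response element of 20 bases with up to 1 mismatch.
Cdkn1a (chr17:29090729-29091028, plus strand): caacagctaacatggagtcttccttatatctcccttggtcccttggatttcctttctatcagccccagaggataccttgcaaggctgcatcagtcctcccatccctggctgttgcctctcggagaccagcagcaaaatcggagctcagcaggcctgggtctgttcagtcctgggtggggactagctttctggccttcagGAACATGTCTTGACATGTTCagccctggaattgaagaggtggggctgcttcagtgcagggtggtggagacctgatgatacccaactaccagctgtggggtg
Cdkn1b (chr6:134920151-134920450, plus strand): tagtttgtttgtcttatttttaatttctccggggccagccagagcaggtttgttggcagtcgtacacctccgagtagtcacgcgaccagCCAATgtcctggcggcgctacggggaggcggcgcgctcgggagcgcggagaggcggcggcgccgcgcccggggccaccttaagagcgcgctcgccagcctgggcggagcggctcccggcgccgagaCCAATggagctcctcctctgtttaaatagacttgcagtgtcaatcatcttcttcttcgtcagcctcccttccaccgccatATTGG
Mcm7 (chr5:138171217-138171516, minus strand): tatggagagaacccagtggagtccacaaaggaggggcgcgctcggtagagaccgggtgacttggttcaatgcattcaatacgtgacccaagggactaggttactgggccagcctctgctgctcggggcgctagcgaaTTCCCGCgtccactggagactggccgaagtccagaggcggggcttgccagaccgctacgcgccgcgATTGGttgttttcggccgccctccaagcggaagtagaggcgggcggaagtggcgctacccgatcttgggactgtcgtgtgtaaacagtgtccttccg
Cdk1 (chr10:69352863-69353162, minus strand): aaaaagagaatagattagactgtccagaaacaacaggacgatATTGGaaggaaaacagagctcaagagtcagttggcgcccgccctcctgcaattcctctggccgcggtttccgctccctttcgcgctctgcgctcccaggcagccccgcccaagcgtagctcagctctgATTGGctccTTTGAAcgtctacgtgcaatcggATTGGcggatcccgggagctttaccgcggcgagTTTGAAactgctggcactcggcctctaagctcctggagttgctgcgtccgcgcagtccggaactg
Ccnb2 (chr9:70421505-70421804, minus strand): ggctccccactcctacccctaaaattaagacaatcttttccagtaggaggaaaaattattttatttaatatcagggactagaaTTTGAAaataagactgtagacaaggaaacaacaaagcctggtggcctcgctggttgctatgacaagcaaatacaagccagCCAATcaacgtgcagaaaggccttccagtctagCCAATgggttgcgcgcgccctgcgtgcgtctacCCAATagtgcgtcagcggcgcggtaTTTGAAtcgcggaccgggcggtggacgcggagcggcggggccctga
Top2a (chr11:99024140-99024439, minus strand): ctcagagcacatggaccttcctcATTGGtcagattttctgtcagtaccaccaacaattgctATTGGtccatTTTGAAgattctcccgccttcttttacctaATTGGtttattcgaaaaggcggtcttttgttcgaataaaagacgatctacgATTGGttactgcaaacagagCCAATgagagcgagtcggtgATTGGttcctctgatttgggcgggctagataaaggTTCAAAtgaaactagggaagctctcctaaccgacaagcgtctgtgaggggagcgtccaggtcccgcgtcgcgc
TTTGAA was in 11 of 15 windows of cyclin B, Cdk1, mitotic and chromosome genes (73.3%), in 1 of 11 windows of replication genes (9.09%) and in 17.9% of all 32851 windows. CCAAT was in 13 of those 15 windows (86.7%), in 8 of the 11 (72.7%) and in 37.4% of all. TTCCCGC was in 0 of the 15 and in 5 of the 11 (45.5%), against 4.60% of all. The Mcm7 window printed here and the other window of Mcm7 are among these 5. The p53 element was in the Cdkn1a window printed here and in no other window of a member, and in 29 of all 32851 windows (0.09%). Cdkn1a has another window, at another start (chr17:29093519-29093818) and not printed, which held none of these motifs. No matches of different motifs overlapped in the members' windows. These are matches of letters and do not show that a factor binds.

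Library totals ranged from 23407168 to 35478115 counts in GF and from 7590320 to 32869515 in CONV-R, with the 3 CONV-R libraries of code number 9 lowest, at up to 15523860. Liver endothelial markers were present in every library (15 of 15 tested, summed 47754 to 50190 CPM, counts scaled to a common library total, in GF and 27903 to 47345 in CONV-R), and 9 of them were higher in GF. CONV-R 1 stood apart, with the lowest endothelial sum and the highest sum of B and plasma cell markers (1937 CPM, against 30.5 to 52.9 in GF and 77.6 to 103 in the other CONV-R libraries). B and plasma cell markers were lower in GF for 10 of 11 tested genes. Hepatocyte markers were lower in GF for 17 of 18 tested genes and summed to 983 to 1537 CPM in GF and 1675 to 11544 CPM in CONV-R. Neutrophil and monocyte markers were lower in GF for 9 of 12 and summed to 131 to 257 CPM in GF and 313 to 2463 CPM in CONV-R. The 12 Kupffer cell markers summed to 2445 to 4063 CPM in GF and 2607 to 8182 CPM in CONV-R. Cholangiocyte markers were higher in GF for 4 of 8 and lower for 1, and summed to 135 to 358 CPM in GF and 48.9 to 255 CPM in CONV-R. Stellate cell and fibroblast markers were higher for 2 of 11 and summed to 53.3 to 609 CPM in GF and 38.4 to 146 CPM in CONV-R. The 609 CPM came from GF 11, and the other GF libraries lay at 53.3 to 100.4 CPM. Dendritic cell markers were lower for 4 of 10, with sums of 563 to 619 CPM in GF and 559 to 826 CPM in CONV-R. Of 12 T and NK cell markers 1 was lower, with sums of 62.6 to 202 CPM in GF and 66.2 to 395 CPM in CONV-R. Of the erythroid markers 4 globin genes are listed at 0 in every library. Marker sums are in CPM of the whole library. In bulk RNA, fewer cells of a type and less RNA per cell cannot be told apart.

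Of the 39 members, 5 were higher in GF, 0 were lower and 34 did not pass the test (edgeR quasi-likelihood test, Benjamini-Hochberg adjusted over all genes, threshold 0.05). The 5 are the 3 Cip/Kip inhibitor genes Cdkn1a, Cdkn1b and Cdkn1c, the sliding clamp gene Pcna and the helicase gene Mcm7. Among the 13915 genes the background was 11.4% called higher in GF and 12.7% called lower, so the share of members called higher, 12.8%, lay near that of all genes. DESeq2 called 6 higher and 0 lower (13.6% and 15.9% of all genes). The log2 fold change, GF over CONV-R, was above 0 for 30 of 39 members (76.9%), against 48.5% of all tested genes, and the members' median was 0.21, against -0.01. The count at an unadjusted p under 0.05 was 7 higher and 1 lower. The calls depended on which CONV-R libraries were used: against code number 10 alone 13 members were higher and 0 lower (6.89% and 7.05% of all genes), and against code number 9 alone 5 were higher and 3 lower (16.2% and 17.9% of all genes). The direction depended on them too. Against code number 10 alone the log2 fold change was above 0 for 30 of 39 members, with a median of 0.39. Against code number 9 alone it was above 0 for 17 of 39, with a median of -0.04. The median of all genes was -0.01 in both. With library quality weights in limma-voom, 18 members were higher (13.8% of all genes), and 0 were lower (11.9%). With the summed hepatocyte markers of a library as a covariate, 0 members were higher and 0 lower (edgeR, 2.01% and 1.82% of all genes), with 10 higher and 2 lower at an unadjusted p under 0.05. These marker sums did not overlap between the groups, so that fit cannot tell hepatocyte share and group apart. Scaled by library totals instead of TMM, 3 were higher and 1 lower (6.98% and 19.9%), and at a threshold of 0.01 3 were higher and 0 lower (4.52% and 4.16%). The count stayed at 5 higher and 0 lower with DESeq2 size factors (10.8% and 13.1%), without a filter on low counts (7.51% and 8.03%) and with a stricter one (10.9% and 13.8%).

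The Cip/Kip inhibitors rose in GF, all 3 of 3. Cdkn1a encodes p21, a kinase inhibitor induced by p53 and by several other signals. It stood at 43.5, 74.1 and 93.95 CPM (lowest, median and highest, after TMM scaling, as for all levels of single genes) in GF, against 30.3, 36.2 and 42.9 CPM in CONV-R. The groups did not overlap, though GF 10, the lowest GF library, was barely above the highest CONV-R library. The difference was 1.98-fold (log2 fold change 0.99 ± 0.15 SE, adjusted p = 8.27e-04). Cdkn1b encodes p27, an inhibitor of cyclin E and Cdk2 that is high in resting cells. Its level was 114.9, 118.5 and 130.9 CPM in GF, against 55.5, 81.8 and 101.3 CPM in CONV-R. Here too the groups did not overlap, and the GF libraries lay close together with a coefficient of variation of 4.62%, against 18.6% in CONV-R. The difference was 1.47-fold (log2 fold change 0.56 ± 0.11, adjusted p = 0.00398).

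Cdkn1c encodes p57, an imprinted inhibitor expressed from the maternal allele. It held 37.4, 46.6 and 50.2 CPM in GF, against 22.5, 26.9 and 38.3 CPM in CONV-R. The groups overlapped in GF 12, which lay below CONV-R 3, and the difference was 1.55-fold (log2 fold change 0.64 ± 0.12, adjusted p = 0.00363). An annotated antisense transcript covers part of the Cdkn1c exons, and the strand setting of the counting is not stated. All 3 calls held on leaving out any 1 of the 13 libraries, with log2 fold changes of 0.88 to 1.09 for Cdkn1a, 0.47 to 0.62 for Cdkn1b and 0.57 to 0.71 for Cdkn1c. Against code number 10 alone the log2 fold change was 0.93 for Cdkn1a, 0.39 for Cdkn1b and 0.60 for Cdkn1c, and against code number 9 alone it was 1.05 for Cdkn1a, 0.81 for Cdkn1b and 0.68 for Cdkn1c, all past the threshold. Hepatocyte markers did not overlap between the groups either, and with their share as a covariate none of the 3 passed (0.70 ± 0.23 with adjusted p = 0.119 for Cdkn1a, 0.31 ± 0.15 with adjusted p = 0.301 for Cdkn1b, 0.65 ± 0.20 with adjusted p = 0.0905 for Cdkn1c). Sums of endothelial, of neutrophil and monocyte, and of B and plasma cell markers did not overlap between the groups either. Cholangiocyte markers, with sums of 135 to 358 CPM in GF and 48.9 to 255 CPM in CONV-R, overlapped between the groups. Since hepatocyte share went with group, the hepatocyte fit cannot tell them apart. The part of any cell type in these differences was not tested.

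**Figure D1:**
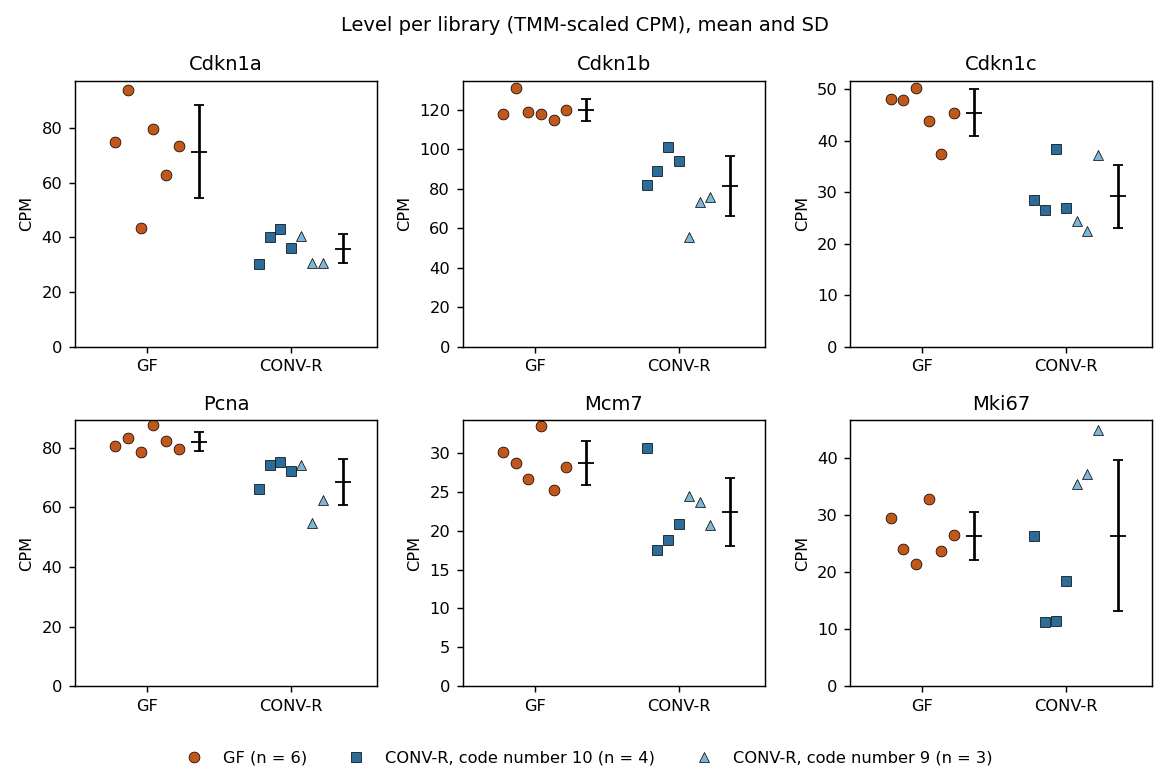
CPM per library of Cdkn1a, Cdkn1b, Cdkn1c, Pcna, Mcm7 and Mki67, with each group's mean and SD; squares and triangles are CONV-R libraries of code numbers 10 and 9. GF libraries lie above every CONV-R library for Cdkn1a, Cdkn1b and Pcna, and for Mki67 they lie between 21.5 and 32.8 CPM, within the CONV-R range of 11.2 to 45.0 CPM.

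The G1 cyclins and kinases were abundant, Cdk6 excepted, and 0 of 5 passed (edgeR; 1, Cdk6, at an unadjusted p under 0.05, and 0 by DESeq2 and limma-voom). Ccnd1, the cyclin D1 gene, held 284, 353 and 422 CPM in GF, against 273, 366 and 521 CPM in CONV-R (log2 fold change -0.11 ± 0.15, adjusted p = 0.597). Ccnd2 stood at 0.11 ± 0.09, Ccnd3 at 0.13 ± 0.09 and the kinase gene Cdk4 at 0.05 ± 0.11 on the log2 scale, and the ranges of these 4 genes overlapped. Cdk6, the other D cyclin kinase gene, stood at 1.93, 2.34 and 2.95 CPM in GF and 2.23, 3.08 and 4.96 CPM in CONV-R. Its log2 fold change of -0.50 ± 0.21 did not pass (adjusted p = 0.0977), but did without CONV-R 3 (-0.58, adjusted p = 0.0494) and against code number 9 alone (-0.70, adjusted p = 0.0476). Ccnd1 shares 1100 bases of exon with a gene on the opposite strand and Cdk4 shares 641.

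Cyclin E genes and Cdk2 did not pass with edgeR, although Ccne2 did with DESeq2 and limma-voom. Cdk2 held 36.3, 39.1 and 42.4 CPM in GF, against 38.5, 43.5 and 45.9 CPM in CONV-R, groups that overlapped (log2 fold change -0.11 ± 0.06, adjusted p = 0.188). With library totals in place of TMM, which lowers the median of all genes to -0.11, Cdk2 was at -0.21 and past the threshold (adjusted p = 0.0442). Ccne1 had the fewest counts, 10 to 33 counts per GF library and 2 to 35 per CONV-R library, too few to show any but a large difference (-0.20 ± 0.41). Ccne2 stood at 2.27, 2.94 and 4.08 CPM in GF and at 1.08, 1.79 and 3.35 CPM in CONV-R (0.72 ± 0.25, adjusted p = 0.0519). Only CONV-R 7 reached the GF median, and without it Ccne2 passed (0.93, adjusted p = 0.0104). It also passed against code number 10 alone (1.11, adjusted p = 0.0111).

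Replication licensing loads the MCM helicase onto origins, a step carried out by Cdc6 and Cdt1. Of these 8 genes 1 rose in GF and 7 did not pass. Mcm7, a helicase subunit, held 25.2, 28.5 and 33.4 CPM in GF, against 17.6, 20.9 and 30.7 CPM in CONV-R. CONV-R 1 lay among the GF libraries and the other 6 CONV-R libraries lay below every GF library (log2 fold change 0.36 ± 0.12, adjusted p = 0.0395). Without any 1 of 10 libraries Mcm7 missed the threshold, that is all except CONV-R 1, CONV-R 5 and GF 12, with adjusted p up to 0.0911. It also missed it against code number 10 alone (0.39, adjusted p = 0.106), and with library totals (0.26, adjusted p = 0.136). Mcm7 exons also overlap Ap4m1 by 321 bases and Cops6 by 64, both on the opposite strand. Mcm3, the most abundant subunit per length, held 83.1, 86.0 and 108 CPM in GF, against 76.3, 98.9 and 114 CPM in CONV-R (-0.13 ± 0.10, adjusted p = 0.361). Mcm2, Mcm4, Mcm5 and Mcm6 lay between -0.09 and 0.08 with standard errors of 0.07 to 0.11, so the subunits of the complex other than Mcm7 lay closer to 0.

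The loading factors were low and variable in CONV-R. Cdt1 held 3.89, 4.56 and 5.70 CPM in GF, against 3.72, 5.88 and 13.5 CPM in CONV-R, where CONV-R 1 was the highest (-0.50 ± 0.26, adjusted p = 0.164; -0.25 without CONV-R 1). Against code number 9 alone Cdt1 fell in GF (-0.53 ± 0.17, adjusted p = 0.0308). Cdc6 held 1.41, 2.11 and 2.47 CPM in GF, against 1.08, 2.13 and 3.66 CPM in CONV-R (-0.18 ± 0.27).

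At the replication fork Pcna rose in GF and 2 genes of nucleotide supply did not pass with edgeR. Pcna encodes the clamp that holds DNA polymerase on its template and also serves DNA repair. It held 78.7, 81.4 and 87.6 CPM in GF, against 54.7, 72.3 and 75.3 CPM in CONV-R. Again no CONV-R library reached the lowest GF library, with a small difference of 1.20-fold (log2 fold change 0.26 ± 0.07, adjusted p = 0.0206). Pcna passed against each code number alone (0.19 for 10 and 0.35 for 9), but not without GF 9 (0.24, adjusted p = 0.0570), without GF 12 (0.25, adjusted p = 0.0501), with library totals (0.16, adjusted p = 0.101) or with the hepatocyte share (0.16, adjusted p = 0.495). Tyms, the thymidylate synthase gene, stood at 0.12 ± 0.12, and Rrm2, the small subunit of ribonucleotide reductase, at 0.38 ± 0.25. Rrm2 held 5.59, 6.74 and 10.5 CPM in GF, against 2.59, 6.03 and 8.40 CPM in CONV-R, and it passed with limma-voom (0.81, adjusted p = 0.0137). Non-overlap in which GF is higher thus held for 3 of 39 members, Cdkn1a, Cdkn1b and Pcna (7.69%, against 5.94% of all tested genes), and no member had every GF library below CONV-R (4.32% of all).

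Against the 7 CONV-R libraries together, edgeR called 0 of the 17 genes of the later wave. At an unadjusted p under 0.05 edgeR gave 1. DESeq2 also called 0, and limma-voom called 11 higher (13.8% of all genes). In edgeR 16 of the 17 log2 fold changes were above 0, but genes measured in the same libraries are not independent. Against code number 10 alone all were above 0, and against code number 9 alone fewer were. Those were 0 of 4 cyclin and Cdk1 genes, 4 of 7 mitotic kinase and checkpoint genes, and 2 of 6 chromosome and spindle genes. Mki67 encodes the Ki-67 protein that coats mitotic chromosomes and is the usual marker of cycling cells. It held 21.5, 25.4 and 32.8 CPM in GF, against 11.2, 26.3 and 45.0 CPM in CONV-R (log2 fold change 0.01 ± 0.30, adjusted p = 0.988). The GF libraries sat in the middle of a CONV-R range that was split by code number, at 11.2 to 26.3 CPM in code number 10 and 35.5 to 45.0 CPM in code number 9. Against code number 9 alone Mki67 fell in GF (-0.59 ± 0.13, adjusted p = 0.00630), and against code number 10 alone it stood at 0.65 ± 0.24 (adjusted p = 0.0935). On all 13 libraries, limma-voom with quality weights called Mki67 higher in GF (0.73 ± 0.23, adjusted p = 0.0323). In edgeR the direction of the Mki67 difference therefore turned with the CONV-R libraries used, and its call differed by method.

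The cyclin genes of this wave were split by code number as well. Cdk1, the mitotic kinase gene, was not split in this way, with 6.79 to 10.4 CPM in code number 10 and 9.18 to 14.0 CPM in code number 9. It held 9.36, 11.1 and 12.5 CPM in GF, against 6.79, 9.24 and 14.0 CPM in CONV-R (0.18 ± 0.14, adjusted p = 0.350). Ccnb2, a mitotic cyclin gene, held 3.40, 3.97 and 5.34 CPM in GF, against 1.44, 2.79 and 4.57 CPM in CONV-R (0.45 ± 0.25, adjusted p = 0.190). In code number 9 Ccnb2 stood at 3.97 to 4.57 CPM, within the GF range, and in code number 10 at 1.44 to 2.79 CPM, below every GF library. Against code number 10 alone Ccnb2 (0.91) and Ccna2 (0.82), the cyclin of S phase and early mitosis, rose in GF, while Ccnb1 (0.76 ± 0.30) did not pass. Against code number 9 alone all 4 genes of this group lay between -0.30 and -0.02.

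Among the 7 genes of mitotic kinases, spindle checkpoint and anaphase-promoting complex, Bub1b was the most abundant. Bub1b, which encodes the checkpoint protein BubR1, held 16.2, 18.0 and 20.2 CPM in GF, against 13.5, 18.5 and 24.8 CPM in CONV-R (-0.04 ± 0.12, adjusted p = 0.854). Bub1 had a wider CONV-R range of 0.745 to 4.75 CPM around 2.17 to 3.28 CPM in GF. The kinase genes Aurka, Aurkb and Plk1 stood at 0.24 ± 0.16, 0.04 ± 0.27 and 0.30 ± 0.17 on the log2 scale. Cdc20, an activator of the anaphase-promoting complex, stood at 0.37 ± 0.18 and Ube2c, its ubiquitin-conjugating enzyme, at 0.59 ± 0.29 (adjusted p = 0.153). Ube2c alone of these 7 passed against code number 10 (0.95, adjusted p = 0.0478), and it passed without CONV-R 5 (0.80, adjusted p = 0.0497).

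For the 6 chromosome and spindle genes the median log2 fold change was 0.28 against all CONV-R libraries and 0.74 against code number 10 alone. Top2a, the topoisomerase that untangles chromosomes, held 16.8, 18.6 and 26.7 CPM in GF, against 8.03, 16.7 and 29.4 CPM in CONV-R (0.32 ± 0.27, adjusted p = 0.401). Cenpf, a kinetochore protein gene, held 5.95, 6.87 and 7.81 CPM in GF, against 2.03, 4.36 and 7.71 CPM in CONV-R (0.54 ± 0.26, adjusted p = 0.138). For Cenpf every code number 10 library lay below every GF library, while CONV-R 5 and 6 lay within the GF range and CONV-R 7 below it. Nusap1, a spindle microtubule protein gene, had the smallest p of the 17 (0.55 ± 0.22, adjusted p = 0.0876). Against code number 10 alone 5 of these 6 genes rose in GF and 0 fell (6.89% and 7.05% of all genes). They were Cenpf (1.06), Nusap1 (0.83), Top2a (0.79), the motor protein gene Kif11 (0.68) and the survivin gene Birc5 (0.65). Against code number 9 alone 0 of the 6 rose and 1, Mki67, fell (16.2% and 17.9% of all genes), and the group's median was -0.19. Both comparisons use the same 6 GF libraries, and the difference between them was not tested.

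**Figure D2:**
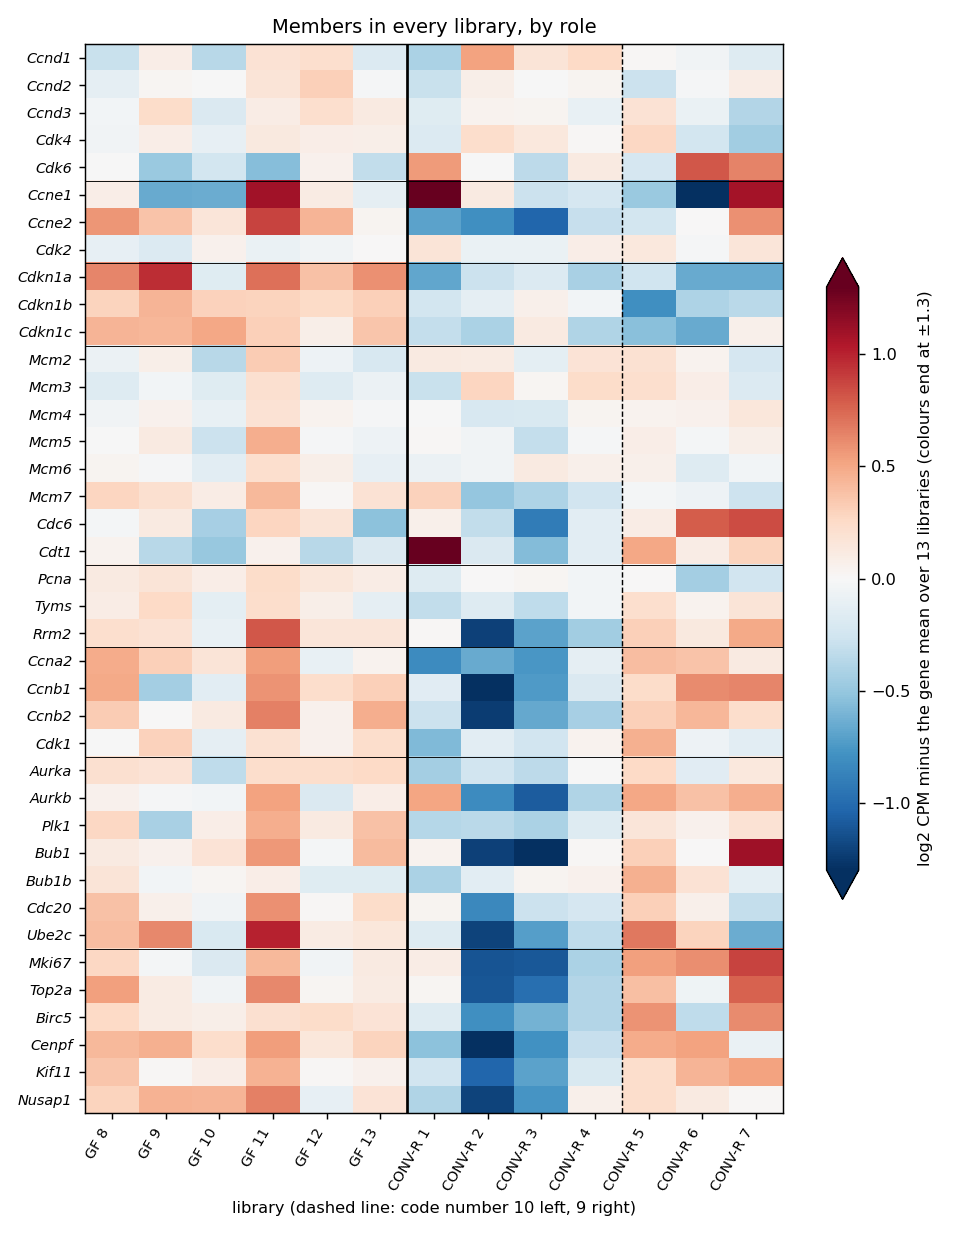
Log2 CPM of each member in each library minus that gene's mean over the 13 libraries, GF on the left and CONV-R on the right, with code numbers 10 and 9 separated by a dashed line and roles by horizontal lines. CONV-R 2 and 3 are the darkest blue across most mitotic genes in the lower part, and the Cip/Kip rows are red in GF, except Cdkn1a in GF 10, and mostly blue in CONV-R.

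Single libraries stood out. CONV-R 2 was the lowest of the 7 CONV-R libraries for 10 of the 17 genes, CONV-R 1 for 4 and CONV-R 3 for 3, while CONV-R 5 and CONV-R 7 were the highest for 7 each. Among GF libraries GF 11 was the highest for 13 of the 17 and for 26 of all 39 members, and GF 10 the lowest for 7 and 19. The summed level of the 17 genes was 118 to 161 CPM in GF, 70.9 to 105 CPM in CONV-R of code number 10 and 143 to 160 CPM in CONV-R of code number 9. Of all 39 members 12 had every code number 9 library above every code number 10 library (30.8%), against 3.72% of all tested genes. The coefficient of variation was larger in CONV-R than in GF for 34 of 39 members (87.2%), close to the 90.2% of all tested genes, with member medians of 16.0% in GF and 22.8% in CONV-R.

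Other measures differed between CONV-R libraries as well. Kupffer cell markers summed to 4766 to 8182 CPM in code number 9, to 7148 CPM in CONV-R 1 and to 2607 to 3276 CPM in CONV-R 2 to 4. GF libraries had Kupffer sums of 2445 to 4063 CPM. Their sum of the 17 genes was 118 to 161 CPM, against 70.9 to 105 CPM in code number 10 and 143 to 160 CPM in code number 9. Neutrophil and monocyte markers summed to 874 to 2463 CPM in code number 9 and 313 to 446 CPM in code number 10. Depth was 7590320 to 15523860 counts in code number 9 and 18276439 to 32869515 in code number 10. The part of these in the members' levels was not tested. Against CONV-R 2, 3 and 4 alone, a choice made after the levels by library were seen, 18 members were higher and 0 lower in GF (9.47% and 9.55% of all genes), Mki67 (0.94) and Top2a (1.03) among them. That choice leaves out CONV-R 5 and CONV-R 7, each the highest CONV-R library for 7 of the 17 genes. These calls are therefore a description and not an independent test.

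**Figure D3:**
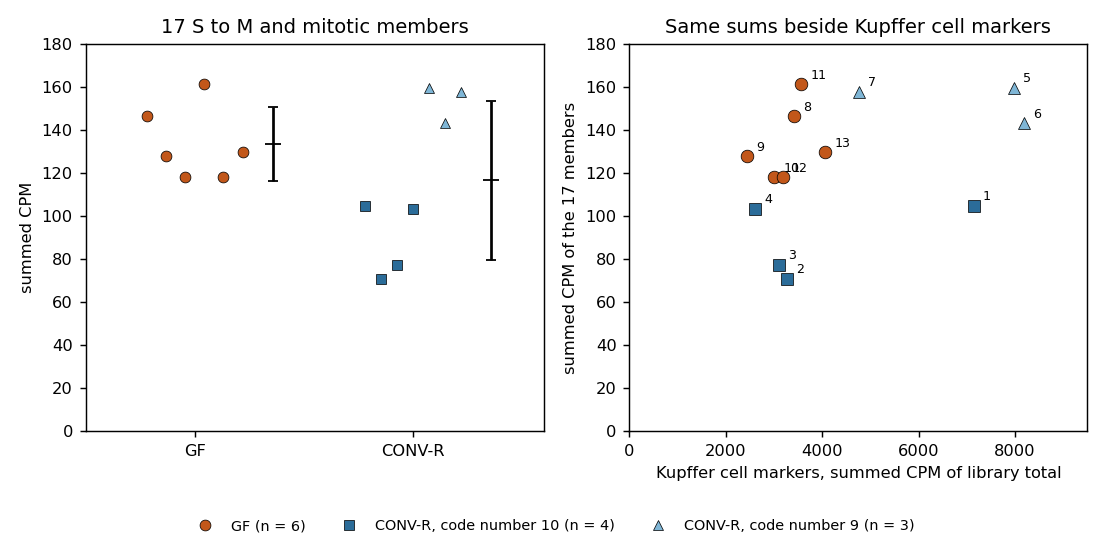
Left, summed CPM of the 17 cyclin A and B, Cdk1, mitotic and chromosome members per library with group mean and SD. Right, the same sums against the summed CPM of 12 Kupffer cell markers, each point labelled with its library number. GF libraries lie between 118 and 161 CPM, CONV-R libraries of code number 10 between 70.9 and 105 and those of code number 9 between 143 and 160.

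Per kilobase of annotated exon, the members spanned a wide range of levels. Ccnd1 stood highest, at 75.1 CPM per kilobase in GF and 81.3 in CONV-R, followed by Cdk4 at 43.2 in GF and 41.7 in CONV-R. Pcna stood at 34.2 in GF and 28.5 in CONV-R, and Ccnd2 at 32.4 in GF and 30.0 in CONV-R. Cdkn1a stood at 20.1 CPM per kilobase in GF and 10.1 in CONV-R, Cdkn1b at 26.4 in GF and 17.9 in CONV-R, and Cdkn1c at 22.3 in GF and 14.3 in CONV-R. In CONV-R, Cdkn1b and Cdkn1c lay above Ccnd3 (12.6) and Cdkn1a below it, and in GF all 3 inhibitors lay above Ccnd3 (13.8). Genes of the later wave other than Bub1b stood between 0.445 and 2.71 CPM per kilobase in GF and between 0.310 and 2.63 in CONV-R. Cdk6 was the lowest of all members, at 0.172 CPM per kilobase in GF and 0.246 in CONV-R. Lengths are from GENCODE release M21 and may differ from the authors' annotation. Exons also overlap a gene on the opposite strand by 273 bases in Cdkn1a, 510 in Ccna2, 609 in Ccne2 and 592 in Ube2c.

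**Figure D4:**
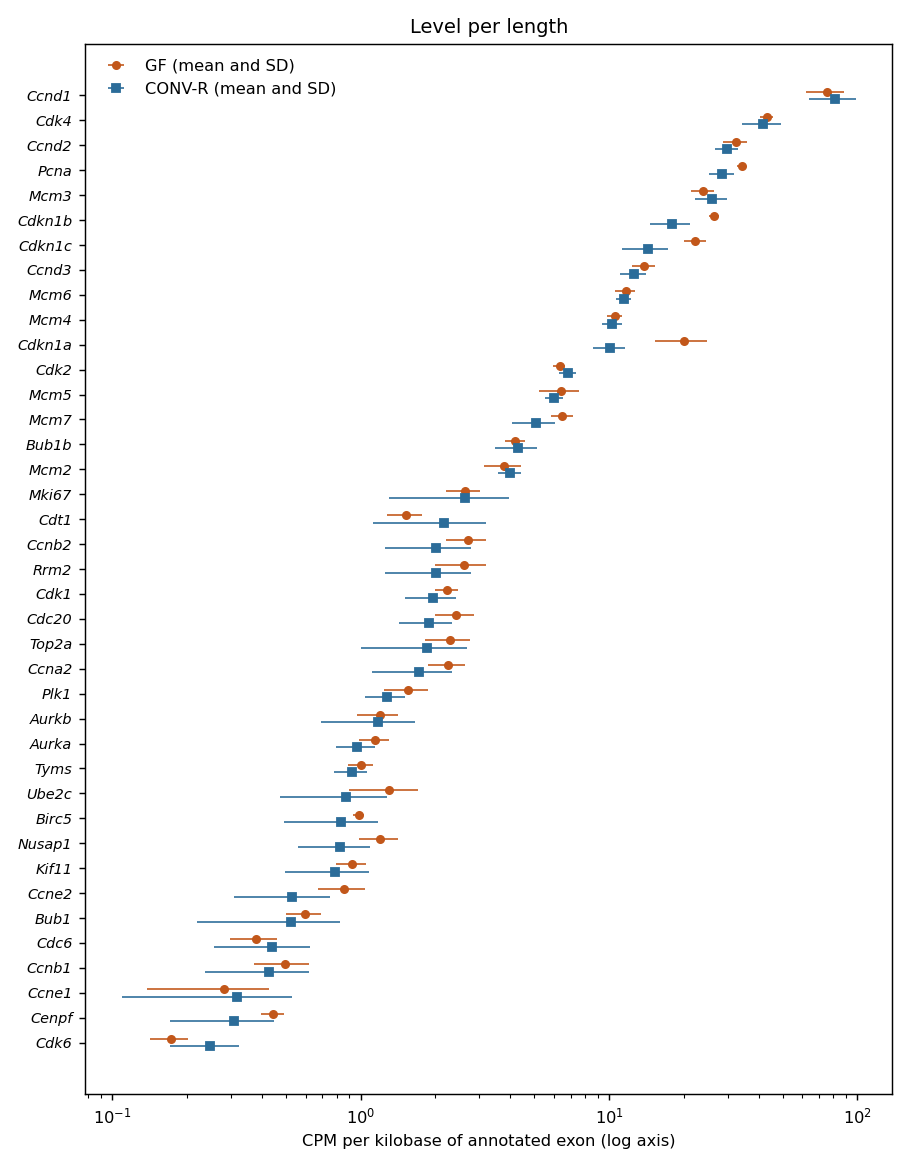
Mean CPM per kilobase of annotated exon of each member, with SD, on a log axis, for GF and CONV-R, ordered by the CONV-R mean. Ccnd1, Cdk4, Ccnd2, Pcna and Mcm3 are at the top, and the mitotic genes, most with overlapping SD bars, fill the lower part.

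The other genes of the pathway are given by role, to be read against 11.4% higher and 12.7% lower among all tested genes. Of 40 further replication genes 39 were tested, of which 3 rose, 1 fell and 35 did not pass, with a median of -0.03. Gins4, a subunit of the replicative helicase, held 20.9 to 23.2 CPM in GF, against 15.6 to 19.6 CPM in CONV-R (0.37 ± 0.06, adjusted p = 0.00178), without overlap. The polymerase genes Pola1 (0.34 ± 0.09) and Pole (0.38 ± 0.12) rose and Tk1, the thymidine kinase gene, fell (-0.71 ± 0.24, adjusted p = 0.0489), and the calls of Pole and Tk1 were lost on leaving out any 1 of 9 libraries for Pole and any 1 of 10 for Tk1. Of 43 further mitosis genes 2 rose, 1 fell and 40 did not pass (median 0.16). They were the condensin gene Smc2 (0.39 ± 0.09, adjusted p = 0.00694), the spindle assembly gene Tpx2 (0.57 ± 0.19, adjusted p = 0.0473) and, lower, the securin gene Pttg1 (-0.20 ± 0.07, adjusted p = 0.0424). The Tpx2 call was lost without any 1 of 11 libraries and that of Pttg1 without any 1 of 6. In this list too, 13 rose and 0 fell against code number 10 alone (6.89% and 7.05% of all genes), and 1 rose and 4 fell against code number 9 alone (16.2% and 17.9%). With the hepatocyte covariate 1 replication gene, Gins4 (0.43, adjusted p = 0.0339), was higher and 0 were lower, and among the mitosis genes Smc2 was higher (0.52, adjusted p = 0.0499) and Kif4, a kinesin gene named after its value was seen, was lower (-0.84, adjusted p = 0.0184).

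Among regulators upstream, calls went in both directions. Of 19 genes of E2F factors, pocket proteins and the DREAM complex, 5 rose in GF, 1 fell and 13 did not pass (median 0.08). Tfdp2, an E2F partner gene, held 46.5 to 53.1 CPM in GF, against 24.8 to 40.7 CPM in CONV-R (0.60 ± 0.10, adjusted p = 0.00148). Rb1, the retinoblastoma gene, held 81.5 to 93.1 CPM in GF, against 62.1 to 84.7 CPM in CONV-R (0.31 ± 0.07, adjusted p = 0.00968), where CONV-R 4 overlapped GF. The DREAM core genes Lin54 (0.39 ± 0.07) and Lin52 (0.29 ± 0.07) rose, and so did Lin9 (0.65 ± 0.17), while E2f2 fell (-1.25 ± 0.37); Lin9 and E2f2 were named after their values were seen. The E2f2 call was lost without any 1 of 5 libraries and with limma-voom (-0.45, adjusted p = 0.115), and against CONV-R 2, 3 and 4 alone E2f2 stood at -0.26 (adjusted p = 0.269). With the hepatocyte covariate E2f2 turned to 0.25 (adjusted p = 0.742), and Tfdp2 (0.28, adjusted p = 0.192), Rb1 (0.17, adjusted p = 0.448), Lin54 (0.15, adjusted p = 0.363), Lin52 (0.14, adjusted p = 0.530) and Lin9 (0.82, adjusted p = 0.108) did not pass either. In that edgeR fit 0 of the 19 genes passed, with 4 at an unadjusted p under 0.05. Of 11 other regulators of G1, 2 rose, 1 fell and 8 did not pass. Myc, a driver of cell growth and division, held 3.93 to 5.38 CPM in GF, against 6.29 to 23.1 CPM in CONV-R, without overlap (-1.39 ± 0.27, adjusted p = 0.00396), and the highest value was that of CONV-R 1. With the hepatocyte share as a covariate Myc stood at -0.34 (adjusted p = 0.527). The cyclin G genes Ccng1 (0.23 ± 0.06) and Ccng2 (0.40 ± 0.11) rose. With the hepatocyte covariate 0 of the 11 passed in edgeR, with 5 at an unadjusted p under 0.05.

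Genes known as p53 targets, of which Cdkn1a is one, rose for 7 of 20 and fell for 3 (median 0.19, against 11.4% higher and 12.7% lower among all tested genes). With the hepatocyte covariate 1 of the 20 was higher, Perp (adjusted p = 0.0272, with a log2 fold change of -0.26 without the covariate), and 1 was lower, Plk2 (-0.94, adjusted p = 0.00449). Fas, a death receptor gene, held 118 to 157 CPM in GF, against 51.7 to 98.8 CPM in CONV-R (0.84 ± 0.14, adjusted p = 0.00124), and Eda2r, another receptor of that family, 16.6 to 24.4 CPM in GF, against 8.10 to 14.8 CPM in CONV-R (0.86 ± 0.15, adjusted p = 0.00190). Plk2, a stress-induced kinase gene, fell, with 155 to 191 CPM in GF and 216 to 353 CPM in CONV-R (-0.73 ± 0.11, adjusted p = 6.54e-04). Sesn2 (0.63), Trp53inp1 (0.64), Phlda3 (0.54) and Ccng1 were the others that rose. Pmaip1 (-1.10) and Aen (-0.25), both linked to apoptosis, also fell, and Mdm2 (-0.11 ± 0.07) and Bax (0.02 ± 0.06) did not pass; these 4, Perp, Sesn2, Trp53inp1 and Phlda3 were named after their values were seen. Of these calls those of Pmaip1 (-0.51, adjusted p = 0.0748) and Aen (-0.17, adjusted p = 0.129) were lost with limma-voom. Of 15 DNA damage checkpoint genes 1 rose, 2 fell and 12 did not pass. Trp53, the p53 gene itself, fell (-0.35 ± 0.06, adjusted p = 0.00248), with 51.6 to 57.4 CPM in GF and 56.7 to 74.9 CPM in CONV-R, where CONV-R 7 alone overlapped GF. Topbp1 rose (0.20 ± 0.06) and the kinase gene Atr fell (-0.23 ± 0.08), calls that were lost on leaving out any 1 of 9 libraries for Topbp1 and any 1 of 8 for Atr. With the hepatocyte covariate Trp53 was lower (-0.43, adjusted p = 0.0265) and the other 14 did not pass.

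In the RefSeq annotation of the build GRCm38, all 5 members that rose are protein-coding. Cdkn1a spans chromosome 17 from 29090979 to 29100722, Cdkn1b chromosome 6 from 134920401 to 134925525 and Cdkn1c chromosome 7 from 143458339 to 143461059. Pcna spans chromosome 2 from 132249286 to 132253180 and Mcm7 chromosome 5 from 138164583 to 138172111.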

How the data were processed

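RNA of liver endothelial cells was made into stranded poly(A) libraries with the TruSeq kit and read on a NovaSeq6000, per the labels' protocols. The authors deposited raw counts per gene symbol, 1 column per library, which is the unit used here. Per the submitters' processing notes, reads were processed with build mm10 and STAR 2.7.5a, FastQC 0.11.9, DESeq2 1.42.1 and featureCounts 2.0.1, whose roles are not stated there. Which annotation, strand setting and treatment of multimapping reads were used is not given in these sources, so genes that overlap on opposite strands can share or lose reads. No column lay outside the series.

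The test was edgeR 4.0.16 (R 4.3.3), with filterByExpr (minimum count 10, minimum total 15), TMM scaling and a robust quasi-likelihood fit of group on all 13 libraries. P-values were adjusted by Benjamini-Hochberg over 13915 genes, with a threshold of 0.05. Standard errors come from the log2 fold change and the test's F statistic (its size over the root of F). The biological coefficient of variation was 0.264. The fit was tested on simulated data. Those counts varied independently around each gene's mean, with changes put into genes picked at random. They held no differences by code number or cell type, so that test does not bear on such differences here. The members and lists were chosen with earlier results of these data known. Named are all members and, of each pathway list, up to 4 genes with the smallest adjusted p past the threshold, or the most abundant where none passed.

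Alternatives were DESeq2 1.42.0, limma-voom (limma 3.58.1) with quality weights, other scaling, filters and threshold, CONV-R libraries of a single code number, the log2 of summed hepatocyte marker CPM as a covariate, leaving out each library and, added later, CONV-R 2, 3 and 4 only.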

Additional observations from a re-analysis of the deposited data

Results flagged for a closer look

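In 8 of 78 sets of values (39 members in each group) 1 library lay far from the others of its group, by the gap to its nearest neighbour relative to the whole range (Dixon's 95% limit), where chance gives about 1 in 20. GF 11 was high for Ccne1 (1.48 CPM, next 0.751), Mcm3 (108 CPM, next 91.3), Rrm2 (10.5 CPM, next 6.96) and Aurkb (4.76 CPM, next 3.51). The same library also held the highest sum of stellate cell and fibroblast markers, 609 CPM, against 53.3 to 100.4 CPM in the other GF libraries; the part of these cells was not tested. GF 9 was high for Cdkn1b (131 CPM, next 120), and without it Cdkn1b still rose. GF 10 was low for Aurka (2.08 CPM, next 2.96). CONV-R 1 was high for Cdt1 (13.5 CPM, next 7.80) and CONV-R 3 low for Mcm5 (19.7 CPM, next 23.7).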

How the results depend on the processing

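Cdkn1a, Cdkn1b and Cdkn1c passed under every alternative but the hepatocyte covariate. The count of 5 members higher and 0 lower was unchanged with DESeq2 size factors, without a filter on low counts and with a stricter one, and was 6 and 0 with DESeq2. It was 18 higher with limma-voom, whose weights were 1.44 to 2.18 for GF libraries and 0.155 to 0.784 for CONV-R 1 and 5 to 7. With library totals 3 were higher and 1 lower (971 and 2773 of all genes, against 1593 and 1764), at a threshold of 0.01 3 were higher (629 and 579 of all genes), with code number 10 as the only CONV-R libraries 13 (978 and 1000), with code number 9 as the only ones 3 were lower, with Mki67 turned to -0.59, and with the hepatocyte covariate 0 were higher (279 and 253). Against CONV-R 2, 3 and 4 only, libraries chosen after the levels were seen, 18 were higher, which is not an independent test. Leaving out 1 library gave 3 to 6 higher and 0 to 1 lower members, and 1013 to 1765 higher and 1208 to 1972 lower genes. Apart from the fewer genes or samples of these fits and the weights given, the cause was not tested. No paired analysis was possible because GF and CONV-R libraries share no replicate numbers. Depth limits the scarcest genes, such as Ccne1 with 2 to 35 counts per CONV-R library.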
